A study of Mus musculus with 8 samples.

Results

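Chemokines and their receptors were examined in articular cartilage of the mouse knee, as a set of 10 genes picked by name: the ligands Ccl2, Ccl3, Ccl6, Ccl9, Cxcl1, Cxcl2 and Cxcl14 and the receptors Ccr2, Cxcr2 and Cxcr4. All 10 were found among the 52636 genes quantified, and 9 passed the level filter of more than 1 TPM (a transcript level scaled for library size and gene length) in at least 1 library, which left 12538 protein-coding genes for the tests. Cxcl1 did not pass and is given by its values alone. The study sequenced Oscar-/- and WT mice of the C57BL/6 strain after DMM surgery (destabilization of the medial meniscus, which brings on osteoarthritis) or sham surgery, at 4 or 2 weeks. The 8 libraries were Oscar-/- DMM, Oscar-/- sham, WT DMM and WT sham at each time, 1 library per combination, and each combined 10 articular cartilages. The study's methods also name knee joint tissues as the source of the RNA. The label of every library gives an age of 10 weeks, and the protocol places DMM surgery in male mice 10 to 12 weeks old. Oscar encodes a collagen receptor of osteoclasts and other myeloid cells. The Oscar-/- animals lack the gene in all tissues.

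Chemokines are small secreted proteins that guide leukocytes along concentration gradients through receptors coupled to G proteins. Cxcl1 and Cxcl2 act on Cxcr2 and draw neutrophils, Ccl2 acts on Ccr2 and draws monocytes, and Cxcl12 acts on Cxcr4 and keeps blood cell precursors and neutrophils in the bone marrow. In injured joints, interleukin-1 and tumor necrosis factor switch on several of the ligands through NF-kappaB. Articular cartilage itself holds chondrocytes and no blood vessels.

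The libraries held much RNA of blood and marrow. Total expected counts were 13189181 to 18533609 per library, and the 4 hemoglobin genes took 26.5% to 37.7% of TPM. A list of 12 neutrophil genes led by S100a9 and S100a8 summed to 69425 to 112430 TPM, whereas 12 chondrocyte genes summed to 284 to 839 TPM, with no gene of either list at 0 in any library. A difference in the number of cells of a type and a difference in RNA per cell cannot be told apart in such bulk samples. Oscar itself was listed at 0 in the Oscar-/- libraries and at 1.25 to 4.21 TPM in the WT libraries. By the lane tag in the deposited data, which no label or protocol repeats, all 2-week libraries came from 1 sequencing lane and the 4-week libraries of each genotype from another. Week and lane then cannot be told apart. Mean fragment length, read from the deposited effective lengths, also moved with week, at 146 to 153 bases at 4 weeks and 173 to 177 bases at 2 weeks.

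Cxcl1 and Cxcl2 lie beside each other on chromosome 5 of GRCm38, on the plus strand, from 90891241 to 90893115 and from 90903871 to 90905938. Their upstream sequences are shown because both genes are known NF-kappaB targets and carry like matches, although their RNA levels were far apart. Each run below is the 250 bases before the RefSeq start in build GRCm38.p6, at chr5:90890995-90891244 for Cxcl1 and chr5:90903649-90903898 for Cxcl2, and capitals mark matches to GGGNNTTTCC, a kappaB pattern, on either strand (GGAAANNCCC on the other strand).
Cxcl1: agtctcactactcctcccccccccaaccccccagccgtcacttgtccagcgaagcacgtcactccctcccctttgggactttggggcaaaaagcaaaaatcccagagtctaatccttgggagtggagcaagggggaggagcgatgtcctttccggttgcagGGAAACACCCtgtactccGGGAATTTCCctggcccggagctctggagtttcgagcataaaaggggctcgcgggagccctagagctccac
Cxcl2: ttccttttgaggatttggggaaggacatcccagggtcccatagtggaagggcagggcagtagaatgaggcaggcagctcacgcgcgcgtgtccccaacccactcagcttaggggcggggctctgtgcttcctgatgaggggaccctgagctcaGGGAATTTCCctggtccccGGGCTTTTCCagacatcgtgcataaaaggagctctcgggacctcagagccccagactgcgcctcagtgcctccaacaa
The match nearest to the start in Cxcl1 and the farther match in Cxcl2 had the same letters, GGGAATTTCC, beginning 71 bases before the Cxcl1 start and 97 bases before the Cxcl2 start. The other match in Cxcl2 was GGGCTTTTCC, which began 78 bases before the start, and the other in Cxcl1 was GGAAACACCC, which began 89 bases before it. No match overlapped another. Of the 32851 upstream sequences in the RefSeq table, 464 (1.41%) held at least 1 match, and 8 (0.0244%) held 2 or more.

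Entries were present for 9 of the 10 genes, and 3 of these held a match: Cxcl1, Cxcl2 and Ccl9. A pair of upstream sequences without these letters are shown beside them, since Ccl3 and Cxcr2 are the genes that passed the test between weeks together with Cxcl2. They are on the minus strand at chr11:83649379-83649628 for Ccl3 and on the plus strand at chr1:74153744-74153993 for Cxcr2.
Ccl3: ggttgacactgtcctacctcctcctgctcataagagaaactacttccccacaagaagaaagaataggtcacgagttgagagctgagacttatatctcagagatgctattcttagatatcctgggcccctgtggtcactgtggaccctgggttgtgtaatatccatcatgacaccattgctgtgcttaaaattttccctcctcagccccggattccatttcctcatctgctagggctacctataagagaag
Cxcr2: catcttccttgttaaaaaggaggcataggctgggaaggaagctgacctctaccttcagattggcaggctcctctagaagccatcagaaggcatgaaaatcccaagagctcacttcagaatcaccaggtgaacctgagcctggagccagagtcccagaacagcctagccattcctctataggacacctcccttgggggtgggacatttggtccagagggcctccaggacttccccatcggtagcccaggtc
The GENCODE starts of Cxcl1, Cxcl2 and Cxcr2 lie slightly before their RefSeq starts. A match describes letters in this window and does not show a bound site.

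The levels of the ligands spanned a wide range. Ccl6 (chromosome 11, 83587882 to 83593087, minus strand), a CC chemokine of myeloid cells known in rodents, was the most abundant at a mean of 215 ± 51.8 TPM (SD over 8 libraries). Ccl9 (chromosome 11, 83572919 to 83578636, minus strand), a relative of Ccl6 that in mice acts on Ccr1 of myeloid cells and osteoclasts, averaged 51.5 ± 6.73 TPM. Cxcl14 (chromosome 13, 56288643 to 56296551, minus strand), a homeostatic chemokine of epithelium and other tissues, averaged 40.7 ± 5.86 TPM. These spreads run over all conditions, as no condition had a second library.

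The inducible ligands stood far lower. Cxcl2 averaged 3.45 ± 1.81 TPM from 42 to 102 expected counts per library, and Ccl3 (chromosome 11, 83647844 to 83649355, minus strand), which acts on Ccr1, averaged 2.50 ± 1.23 TPM from 8 to 39 counts. Ccl2 (chromosome 11, 82035571 to 82037453, plus strand), the main monocyte attractant, averaged 0.886 ± 0.353 TPM from 4 to 15 counts. Cxcl1, the neutrophil attractant, was lowest at 0.320 ± 0.267 TPM from 1 to 12 counts. In every library Cxcl2 exceeded Cxcl1, with a TPM ratio of 5.57 to 35.7 and a median of 10.1, so the neighbours with the shared kappaB match differed widely in RNA level.

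All 3 receptors were abundant. Cxcr4 (chromosome 1, 128588199 to 128592293, minus strand) averaged 137 ± 29.4 TPM, Cxcr2 (chromosome 1, 74153989 to 74161246, plus strand) 57.6 ± 17.7 TPM and Ccr2 (chromosome 9, 124101950 to 124113557, plus strand) 47.0 ± 6.81 TPM. Within the set, Ccr2 was 34.5 to 132 times its ligand Ccl2 in TPM, and Cxcr2 was 12.1 to 27.4 times its ligand Cxcl2. By contrast, the Cxcr4 ligand Cxcl12, which is outside the set, was 2.07 to 3.47 times Cxcr4. Ligands outside the set were not compared in this way with Ccr2 or Cxcr2, so these ratios do not cover all ligands of either receptor. The chemokine Ppbp, outside the set, was at 20.5 to 353 TPM, where Cxcr2 was at 38.3 to 82.8 TPM. The Ccr2 counts were not whole numbers in any library, which shows that some of its reads were divided with other genes. In order of mean TPM the 10 genes ran Ccl6, Cxcr4, Cxcr2, Ccl9, Ccr2, Cxcl14, Cxcl2, Ccl3, Ccl2 and Cxcl1. The ranges of neighbours in this order overlapped, with these exceptions: Cxcr4 stayed at 95.8 TPM or more and Cxcr2 at 82.8 TPM or less, and Cxcl14 stayed at 35.2 TPM or more and Cxcl2 at 6.37 TPM or less. Within each library, however, Ccl6 exceeded Cxcr4, by 1.29 to 1.93 times.

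**Figure D1:**
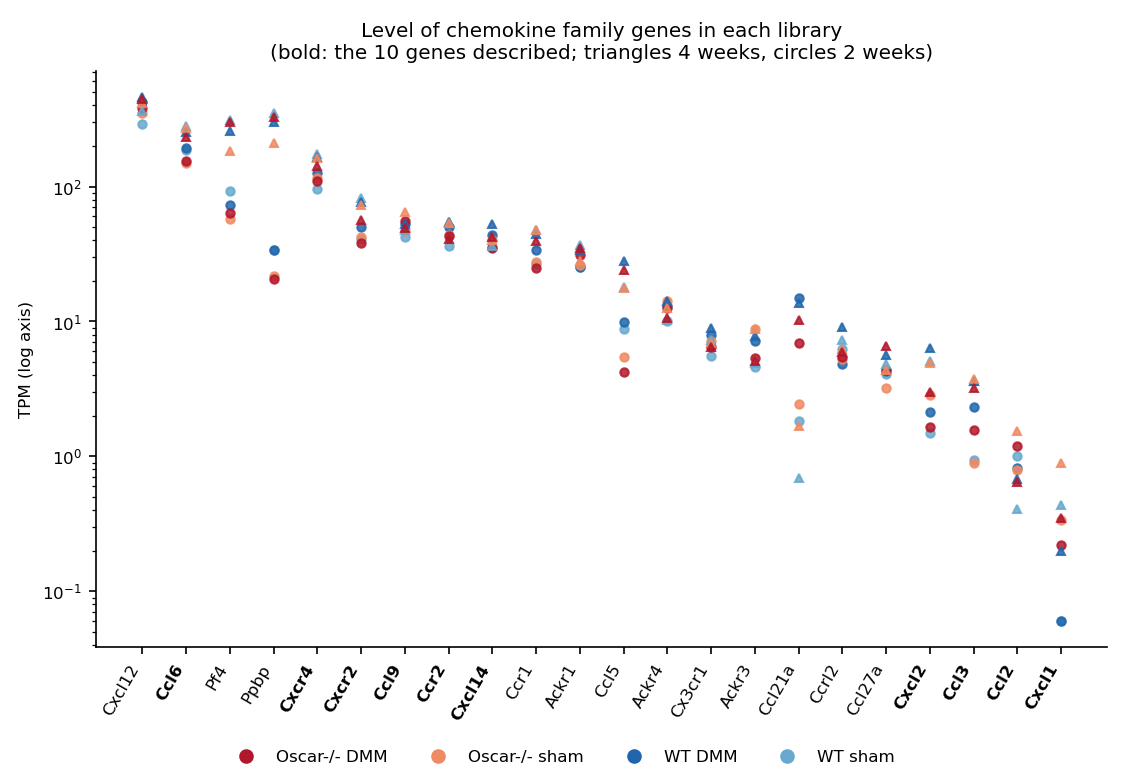
Level in TPM (log axis) of the 10 genes (bold names) and of the 12 other chemokine family genes with the highest mean TPM, ordered by mean, with 1 point per library (triangles 4 weeks, circles 2 weeks, colours for genotype and surgery). Ccl6 and the 3 receptors stand near the top, and Cxcl2, Ccl3, Ccl2 and Cxcl1 stand lowest, with means of 3.45, 2.50, 0.886 and 0.320 TPM.

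Of the comparisons run, that between weeks was the only one in which genes of the set passed the test. At 4 weeks against 2 weeks, Cxcr2, Cxcl2 and Ccl3 rose, by 1.36, 1.83 and 2.11 times, and no gene of the 9 fell (edgeR quasi-likelihood test with week, genotype and surgery as terms, Benjamini-Hochberg adjusted p under 0.05). Over all genes 7.94% passed in either direction and 5.58% were higher at 4 weeks. The median log2 fold change was 0.17 over the 9 genes and -0.02 over all genes tested. The values below are CPM, counts scaled by library size and the trimmed mean of M values (TMM), which compare 1 gene across libraries and are not corrected for gene length.

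Cxcr2, the neutrophil receptor, was at 188 in Oscar-/- DMM, 220.1 in Oscar-/- sham, 216 in WT DMM and 240.3 in WT sham cartilage at 4 weeks. At 2 weeks the same conditions had 141, 149, 169 and 177 CPM. Every 4-week library stood above every 2-week library, and the log2 fold change was 0.44 (SE 0.07, edgeR adjusted p = 0.0068). The call held when any 1 library was left out, with adjusted p up to 0.0351. Here and below, the share of all genes whose 4-week and 2-week libraries do not overlap is not given.

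Cxcl2 was at 4.77 in Oscar-/- DMM, 7.29 in Oscar-/- sham, 7.04 in WT DMM and 6.18 in WT sham cartilage at 4 weeks. At 2 weeks it was at 3.85, 4.45, 2.90 and 2.72 CPM in the same order. The 4-week range did not meet the 2-week range, although 4.77 and 4.45 lay close together. The log2 fold change was 0.87 (SE 0.20, edgeR adjusted p = 0.0327).

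Ccl3 was at 2.30 in Oscar-/- DMM, 2.43 in Oscar-/- sham, 2.18 in WT DMM and 2.24 in WT sham cartilage at 4 weeks. At 2 weeks it was at 1.18, 0.660, 1.63 and 0.841 CPM in the same order. The 4-week libraries were nearly level with each other, whereas the 2-week libraries spread widely and stayed below them. The log2 fold change was 1.08 (SE 0.27, edgeR adjusted p = 0.0400), on 30 to 39 expected counts per library at 4 weeks and 8 to 28 at 2 weeks.

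Cxcr4 also stood higher in each 4-week library, at 225 to 253 CPM at 4 weeks and 194 to 214.5 at 2 weeks, but its log2 fold change of 0.26 (SE 0.07) missed the threshold in edgeR (adjusted p = 0.058). DESeq2 placed it under the threshold at an adjusted p of 0.0421 and left Ccl3 above it at 0.0582, and over all alternatives the adjusted p of Cxcr4 ran from 0.00306 to 0.167. The other 5 genes tested gave -0.63 (SE 0.41) for Ccl2, -0.23 (SE 0.10) for Ccl9, -0.14 (SE 0.10) for Cxcl14, -0.07 (SE 0.07) for Ccr2 and 0.17 (SE 0.11) for Ccl6. Cxcl1 had 7, 12, 3 and 7 expected counts in Oscar-/- DMM, Oscar-/- sham, WT DMM and WT sham libraries at 4 weeks, and 3, 4, 1 and 1 at 2 weeks. It was higher at 4 weeks in all 4 pairs, but counts this low have wide intervals, with exact Poisson 95% limits of 6.20 to 20.96 even for the highest.

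The number of calls depended on single libraries and on the scale. With WT sham or Oscar-/- DMM at 2 weeks left out, or WT sham or Oscar-/- sham at 4 weeks, 1 of the 9 genes passed in place of 3. Ccl3 and Cxcl2 each lost the call in 6 of the 8 fits with 1 library left out, with edgeR adjusted p up to 0.128 and 0.104. On log2(TPM + 1) limma gave 5, Ccl6 and Cxcr4 among them, where the median of all genes was itself 0.23 higher at 4 weeks. On that scale 2639 of all genes were called higher and 60 lower at 4 weeks, beside 700 and 295 in edgeR.

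**Figure D2:**
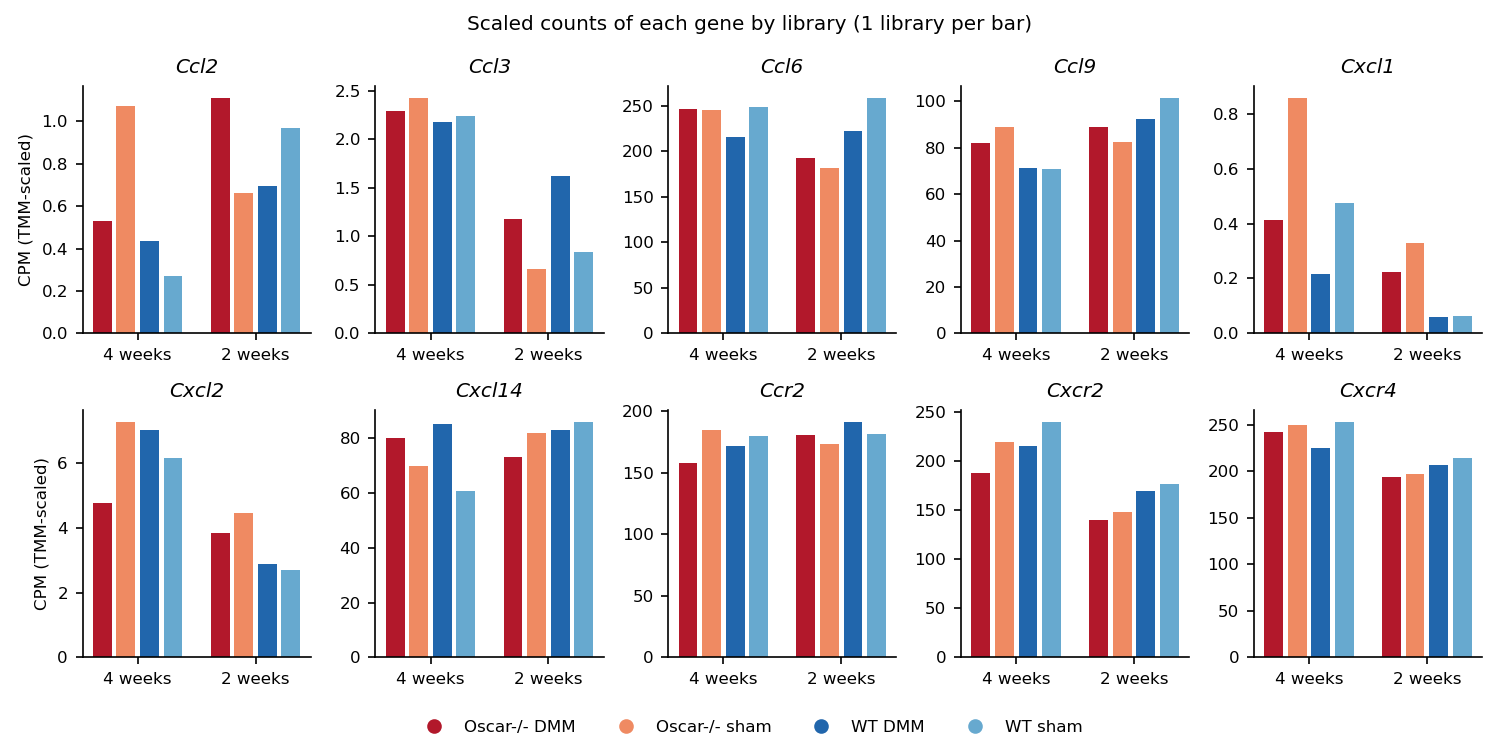
TMM-scaled CPM of each gene (linear axes from 0), with 1 bar per library and the 4-week libraries left of the 2-week libraries. For Cxcr2, Cxcl2, Ccl3 and Cxcr4 all 4-week bars exceed all 2-week bars, and for Ccr2 the bars stay within 158 to 191 CPM. The share of all genes with such a gap between weeks is not given.

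Genes of other cells and of the inducing pathway also differed between weeks, where edgeR called 5.58% of all genes higher at 4 weeks. Of 11 genes tested among inducers and NF-kappaB response genes, 3 rose and 0 fell at 4 weeks, with a median log2 fold change of 0.37: Il1b, which encodes interleukin-1 beta (0.81, SE 0.11, edgeR adjusted p = 0.0040), Zfp36, which encodes an RNA-binding protein that destabilizes cytokine messages (0.45, SE 0.08, adjusted p = 0.0141), and Il1a, named after its value was seen (1.89, SE 0.28, adjusted p = 0.0060). Nfkbia, the NF-kappaB inhibitor, gave 0.17 (SE 0.07) and did not pass. Among neutrophil genes 1 of 12 rose, Csf3r, named after its value was seen, and the list's median was 0.15. Beside 5.58% of all genes, 1 of 12 does not set this list apart from the rest. DESeq2 called 3 of the 12 higher, and limma on log2(TPM + 1) called 9, with a median of 0.45 on a scale where all genes shifted by 0.23. The DESeq2 share over all genes is not given here. In edgeR S100a9, S100a8 and Ngp, the most abundant of that list, gave -0.05 (SE 0.18), 0.25 (SE 0.18) and 0.02 (SE 0.12). Of the monocyte genes 0 of 6 passed in edgeR (1 at an unadjusted p under 0.05), and their median was -0.07. Macrophage genes had 3 of 8 higher, C1qb, C1qc and Cd163, named after their values were seen, and a median of 0.21.

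In edgeR, 5.58% of all genes were called higher at 4 weeks. Among the cell type lists examined, platelet genes had the highest median. All 5 rose, with a median log2 fold change of 1.94, and their summed level was 122 to 191 TPM at 4 weeks and 35.8 to 46.0 TPM at 2 weeks. T and NK cell genes had 2 of 6 higher and a median of 0.999, and their summed level was 60.5 to 73.6 TPM at 4 weeks and 45.6 to 50.5 TPM at 2 weeks. The neutrophil list summed to 90213 to 112430 TPM at 4 weeks and 69425 to 97052 TPM at 2 weeks. The part of these cells, of the lane and of the fragment length in the rise of Cxcr2, Cxcl2 and Ccl3 was not tested.

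DMM surgery changed none of the 9 genes past the threshold. Log2 fold changes over both genotypes and weeks lay between -0.15 and 0.31, and their median was -0.07, beside 0.00 for all genes. In edgeR 0 of 9 passed, with 0.0% called over all 12538 genes, and 0 of 9 had an unadjusted p under 0.05. DESeq2 and limma on log2(TPM + 1) also called 0 of 9. By the same tag, the DMM and sham libraries of a genotype and week always shared a lane.

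Cxcr2 was lower after DMM than after sham surgery in 4 of 4 pairs. Its log2 ratios of TMM-scaled counts were -0.23 in Oscar-/- and -0.16 in WT cartilage at 4 weeks, and -0.08 and -0.06 at 2 weeks, with counting errors of 0.04 to 0.05. The fitted log2 fold change was -0.13 (SE 0.07, edgeR adjusted p = 0.873). Cxcr4 was lower after DMM in 4 of 4 pairs, by log2 ratios of -0.17 to -0.03, with counting errors of 0.03 to 0.04. Apart from the 4-week WT pair its ratios were -0.05 to -0.03, near their counting errors. The share of all genes lower in 4 of 4 pairs is not given here. Cxcl1 had ratios of -1.13 to -0.16, with counting errors of 0.69 to 2.04, and in the 2-week WT pair each library held 1 count, so that the ratio there reflects library scaling alone. On the TPM scale, where the median of all genes after DMM was 0.35 higher in the 2-week WT pair and 0.15 lower in the 4-week Oscar-/- pair, no gene was lower in all 4 pairs. No gene was higher in all 4 pairs on either scale. Neutrophil genes gave a median of -0.20, with 0 of 12 above 0 and 0 of 12 called (2 at an unadjusted p under 0.05), and their part in the Cxcr2 values was not tested.

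Ccl3, a ligand of macrophages and neutrophils, gave unlike DMM to sham ratios at the 2 times. At 4 weeks its log2 ratio was -0.08 in Oscar-/- and -0.04 in WT cartilage, with counting errors of 0.34 and 0.36. At 2 weeks the ratio was 0.84 and 0.95, with counting errors of 0.62 and 0.48. Cxcl14 in WT cartilage had a ratio of 0.49 at 4 weeks and -0.05 at 2 weeks and a counting error of 0.06 for both. A week by surgery term, added after the other fits were seen, called 0 of 9 genes in edgeR, with 0.0% called over all genes and 1 of 9 at an unadjusted p under 0.05. It gave -0.96 (SE 0.49) for Ccl3 and 0.44 (SE 0.17) for Cxcl14, each with an adjusted p of 1.

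**Figure D3:**
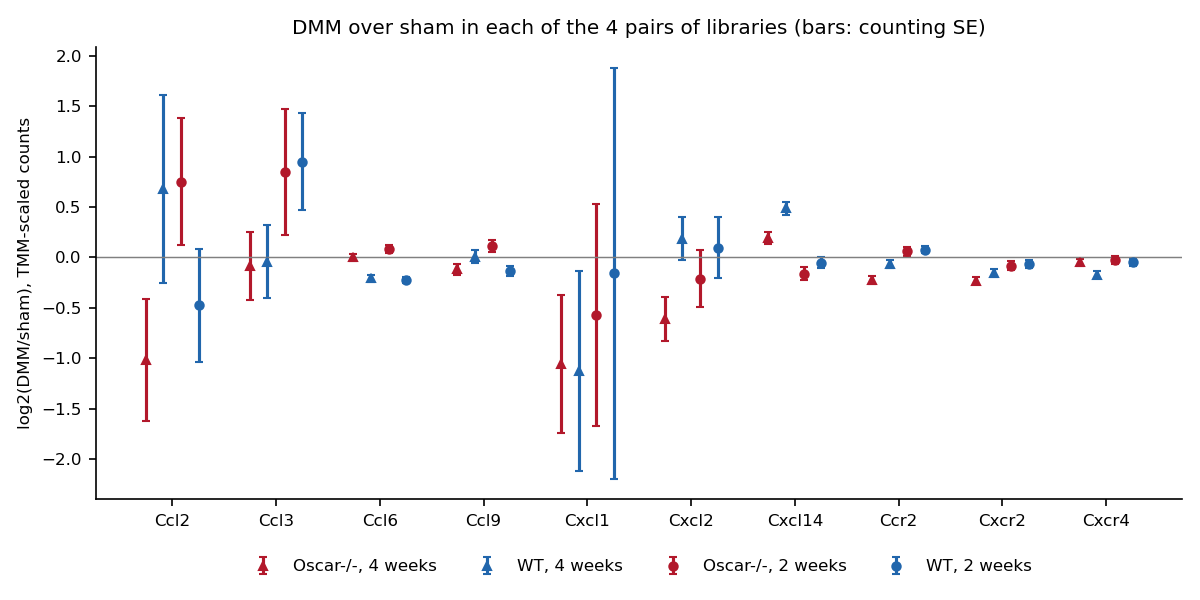
Log2 ratio of DMM to sham in TMM-scaled counts for each gene in the 4 pairs of libraries (triangles 4 weeks, circles 2 weeks, red Oscar-/-, blue WT, bars the counting SE). Cxcr2 and Cxcr4 lie below 0 in all pairs, Ccl3 lies near 0 in the 4-week pairs and at 0.84 and 0.95 in the 2-week pairs, and the wide bars of Ccl2 and Cxcl1 come from counts of 1 to 15.

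Within each genotype no gene of the set passed either. In WT cartilage 0 of 9 genes passed in edgeR, DESeq2 and limma (0 at an unadjusted p under 0.05 in edgeR), beside 4.87% of all genes. At that share, a count of 0 of 9 does not set these genes apart from the rest. In Oscar-/- cartilage 0 of 9 passed by the same 3 tools (0 at an unadjusted p under 0.05 in edgeR), beside 0.112% of all genes. In the same WT comparison, 7 of 8 fibroblast genes, 5 of 6 endothelial genes, 5 of 6 osteoclast genes and 4 of 9 osteoblast and osteocyte genes rose after DMM. The chemokine and receptor genes gave a median of -0.07 in WT cartilage, and the fibroblast list gave 1.39.

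No gene of the set passed between genotypes. Of the 9 genes, 0 passed between Oscar-/- and WT cartilage in edgeR, beside 0.0479% of all genes, and 0 passed in DESeq2 or limma. Among the 6 genes whose lowest library still held 895 or more expected counts, the largest difference was that of Cxcr2, at a log2 fold change of -0.21 (SE 0.07). It was the only one of the 9 with an unadjusted p under 0.05 in edgeR (0.0117), and its adjusted p was 0.9997.

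Cxcr2 was lower in Oscar-/- than in WT cartilage in 4 of 4 pairs matched for surgery and week. The pairs from 1 lane, at 2 weeks, had log2 ratios of -0.27 after DMM and -0.25 after sham surgery, and the 4-week pairs, from different lanes, had -0.20 and -0.13. Neutrophil genes also leaned this way, with a median of -0.15, 0 of 12 above 0 and 0 of 12 called (1 at an unadjusted p under 0.05). Their part in the Cxcr2 difference was not tested. The share of all genes that differ in the same direction in 4 of 4 pairs is not given here. Cxcl1 was higher in Oscar-/- cartilage in 4 of 4 pairs, with 3 to 12 expected counts in Oscar-/- and 1 to 7 in WT libraries. Ccl2 gave 0.53 (SE 0.41) and Ccl6 -0.13 (SE 0.11), neither past the threshold.

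The DMM effect was also compared between the genotypes, which asks whether the loss of Oscar alters the response to surgery. For the genotype by surgery term 0 of 9 genes passed in edgeR, beside 5.24% of all genes, with 0 of 9 at an unadjusted p under 0.05, and 0 of 9 passed in DESeq2 or limma. Here too, 0 of 9 does not set these genes apart from all genes. Values ran from -0.58 (SE 0.35) for Cxcl2 to 0.25 (SE 0.18) for Ccl6. For Cxcl2 the DMM effect was -0.43 (SE 0.25) in Oscar-/- and 0.14 (SE 0.25) in WT cartilage, and the term had an edgeR adjusted p of 0.343. The errors were smaller for Cxcr4, at 0.07 (SE 0.13), and Cxcr2, at -0.05 (SE 0.12).

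**Figure D4:**
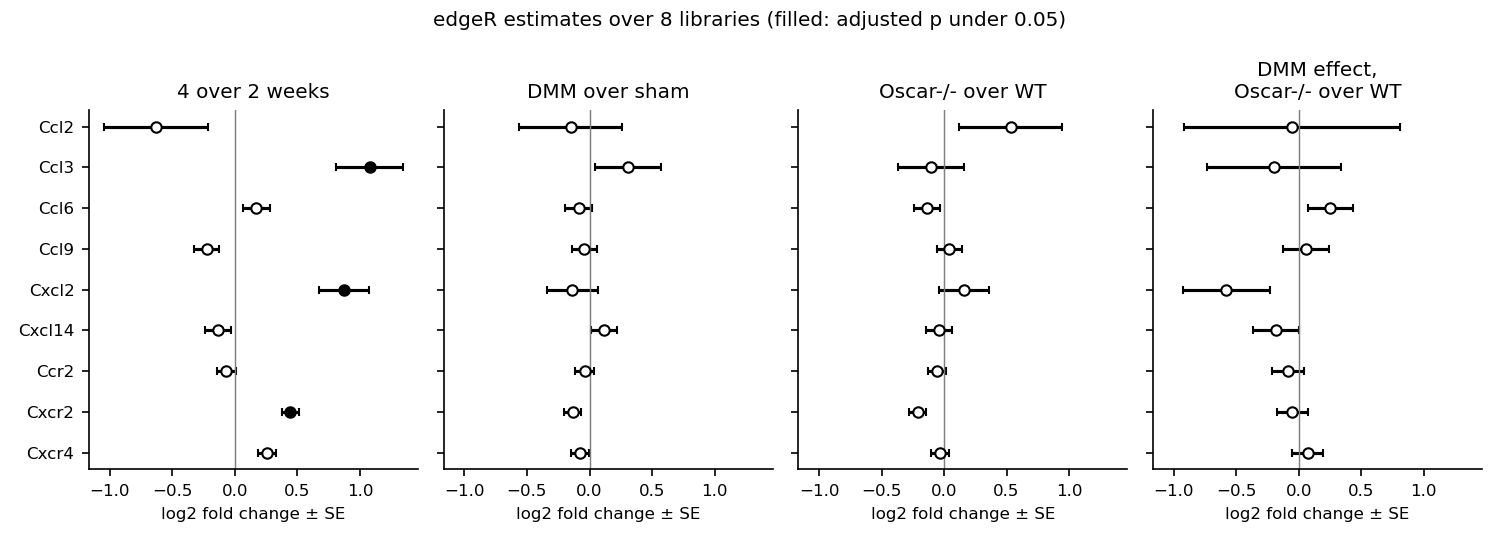
Log2 fold change with its standard error for the 9 genes tested, from edgeR over the 8 libraries, in the comparisons of week, surgery and genotype and for the DMM effect in Oscar-/- over that in WT (filled points pass an adjusted p of 0.05). Filled points appear between weeks alone, for Ccl3 (1.08), Cxcl2 (0.87) and Cxcr2 (0.44).

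The rest of the chemokine family numbered 52 genes, of which 33 passed the level filter. The 12 with the highest mean TPM were Cxcl12 (391), Pf4 (168), Ppbp (163), Ccr1 (36.4), Ackr1 (30.2), Ccl5 (14.6), Ackr4 (12.2), Cx3cr1 (7.08), Ackr3 (6.56), Ccl21a (6.54), Ccrl2 (6.29) and Ccl27a (4.67). Between weeks, where 7.94% of all genes passed and 5.58% were higher at 4 weeks, 6 of 33 rose at 4 weeks and 0 fell. They were the platelet chemokines Ppbp (log2 fold change 3.19, SE 0.21) and Pf4 (1.69, SE 0.21), the ligands Ccl5 (1.43, SE 0.25) and Ccl4 (1.36, SE 0.34), made by T and NK cells among others, Ccr3 (0.70, SE 0.16), a receptor of eosinophils, and Ccr1 (0.37, SE 0.08), the receptor of Ccl3 and Ccl9. With Oscar-/- sham or Oscar-/- DMM at 2 weeks left out, or with WT sham, Oscar-/- sham or Oscar-/- DMM at 4 weeks left out, 3 of the family passed. Like Cxcr2, Ppbp, Pf4 and Ccl5 passed with any 1 library left out.

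Some ligands and their receptors are set side by side here, with no test between them, and other pairs of the family are left out. Cxcl12 gave -0.03 (SE 0.09) between weeks, and its receptor Cxcr4 gave 0.26 (SE 0.07). Ccr1 rose together with its ligand Ccl3, whereas Ccl9, another of its ligands in mice, gave -0.23 (SE 0.10). Cxcr1, the second neutrophil receptor of the family, was far scarcer than Cxcr2, which exceeded it 65.0 to 160 times in TPM. Cxcr1 had only 4 to 20 expected counts per library, so the spread of this ratio is imprecise.

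After DMM the family had 0 of 33 genes past the threshold in edgeR, 3 at an unadjusted p under 0.05, and 1 each in DESeq2 and limma. Ccl21a, a lymphoid tissue chemokine that draws cells bearing Ccr7, was at 10.2 and 6.87 TPM in Oscar-/- DMM and at 1.69 and 2.44 TPM in Oscar-/- sham cartilage at 4 and 2 weeks. In WT it was at 13.7 and 14.9 TPM after DMM and at 0.690 and 1.84 TPM after sham surgery. Every DMM library stood above every sham library, and the share of all genes doing so is not given here. The log2 fold change was 2.68 (SE 0.32) with an edgeR adjusted p of 0.077, which ran from 1.9e-12 to 0.248 over the alternatives. Within WT cartilage 2 of 33 family genes passed, beside 4.87% of all genes, and they were Ccl21a and Ackr3. Ccl21a rose there after DMM by a log2 fold change of 3.15 (SE 0.38, edgeR adjusted p = 0.0010), and it passed in 14 of 14 alternatives. Within Oscar-/- cartilage its value was 2.18 (SE 0.38, adjusted p = 0.060), and the difference between the genotypes did not pass (adjusted p = 0.337). Ccl21a has near-identical copies in the mouse genome and its counts were not whole in any library, so its reads may belong in part to those copies.

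Between Oscar-/- and WT cartilage 0 of 33 family genes passed in edgeR (3 at an unadjusted p under 0.05), and 0 passed in DESeq2 or limma. For the genotype by surgery term 3 of 33 passed, beside 5.24% of all genes. Ackr3, a scavenging receptor for Cxcl12, was at 5.10 and 5.33 TPM in Oscar-/- DMM and at 8.75 and 8.85 TPM in Oscar-/- sham cartilage at 4 and 2 weeks, against 7.76 and 7.18 TPM in WT DMM and 4.94 and 4.59 TPM in WT sham cartilage. It was thus lower after DMM in Oscar-/- and higher in WT cartilage at both times. Its term was -1.15 (SE 0.16, edgeR adjusted p = 0.0084), and without Oscar-/- sham at 2 weeks or WT DMM at 4 weeks the adjusted p was 0.0601 and 0.0670. Ackr1, the scavenging receptor of red cells and venules, gave 0.65 (SE 0.14, adjusted p = 0.0281), and Pf4 gave 0.99 (SE 0.24, adjusted p = 0.0427). Both lost the call in 6 of the 8 fits with 1 library left out, and DESeq2 called Ackr3 alone. The Ackr1 counts were not whole in most libraries, so part of its reads were divided with other genes.

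The genes of the set differed in how far they varied. The SD of log2 TMM-scaled counts over the 8 libraries was 0.08 for Ccr2, 0.15 for Cxcr4, 0.17 for Cxcl14, 0.18 for Ccl9, 0.19 for Ccl6 and 0.28 for Cxcr2, and 0.53 to 0.66 for Cxcl2, Ccl2 and Ccl3, where counting error is large. Likeness of pattern was measured as the root mean square difference of centred log2 values over the 8 libraries, as a description. This difference is also small between genes that vary little, such as Ccr2, so a low value need not mean a shared pattern. Within the set the closest pairs were Ccl6 with Cxcr4 (0.11), Cxcr2 with Cxcr4 (0.14) and Ccl9 with Ccr2 (0.15). Among all genes tested, the nearest to Ccl6 were Lst1 (0.03), Tnfaip8l2 (0.05) and Fcgr3 (0.05), those to Cxcr2 were Vasp (0.04), Tbc1d8 (0.04) and Neurl3 (0.05), and those to Cxcr4 were Bcl10, Rab21 and Leprotl1 (0.03 each).

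Those near Ccr2 included Ap1m1 and 3110082I17Rik (0.04 each). The nearest genes to Ccl9 were Rnf7, Cript and Ube2w (0.04 to 0.06), and to Cxcl14 Tspan4, Bin1 and Hfe (0.06 each). The low ligands had looser neighbours: Oas2, Nufip2 and Pfkfb2 for Cxcl2 (0.15 to 0.20), Cxcr6, Gm14085 and Ttll11 for Ccl3 (0.16 to 0.22), and Rspo3, Plscr2 and Upp2 for Ccl2 (0.23 to 0.28). Cxcr6, a receptor of T and NK cells, averaged 0.671 TPM, so this likeness rests on few reads.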

How the data were processed

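Articular cartilage RNA from 8 pools was sequenced as stranded mRNA libraries. The authors trimmed and aligned the reads to GRCm38 and deposited RSEM expected counts and TPM per gene. Per the submitters' notes the tools were RSEM 1.2.17, STAR 2.6.0a and FastQC 0.11.8 with a human build, while all identifiers are those of mouse. Of 52636 identifiers, 52403 matched GENCODE M21. Expected counts were rounded, and protein-coding genes with more than 1 TPM in at least 1 library were tested in edgeR 4.0.16 with TMM scaling, Benjamini-Hochberg adjustment over 12538 genes and a threshold of 0.05. No condition had a second library, so p-values measure the spread left after the terms of each fit. For the additive comparisons of week, surgery and genotype, that spread includes any genotype by surgery effect. A difference between any pair of libraries has no replicate to check it. Intervals and counting errors cover counting error only.

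DESeq2 1.42.0, limma 3.58.1 on log2(TPM + 1), other scaling and filters, a genotype by week term and the leaving out of each library were alternatives. The edgeR fits for the week, surgery, genotype and genotype by surgery comparisons were also run on simulated counts, and the other fits were not. Computation used scipy 1.17.1, numpy 2.4.6 and pandas 2.3.3 in Python 3.11.15, and R 4.3.3. The genes of the set and the gene lists were chosen with earlier results of these data known. Of the other family genes, the 12 with the highest mean TPM and those passing a test were named, with the 3 nearest genes to each gene of the set that averaged at least 10 counts and up to 3 genes per marker list. A gene of these is not reported here. Upstream sequences came from RefSeq on GRCm38.p6.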

Additional observations from a re-analysis of the deposited data

Results flagged for a closer look

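For 3 chemokine family genes the effect of DMM surgery differed between Oscar-/- and WT cartilage by the genotype by surgery term in edgeR, which called 5.24% of all genes. The difference on the log2 scale was -1.15 for Ackr3, 0.65 for Ackr1 and 0.99 for Pf4. For Ackr3 the DMM effect was -0.66 (SE 0.11) in Oscar-/- and 0.49 (SE 0.12) in WT cartilage. For Ackr1 it was 0.38 (SE 0.10) in Oscar-/- and -0.27 (SE 0.10) in WT cartilage, and for Pf4 0.51 (SE 0.17) and -0.47 (SE 0.17) in the same order. The call held in 12 of 14 alternatives for Ackr3, but in 6 of 14 for Ackr1 and for Pf4, with adjusted p up to 0.415 and 0.212. The platelet list, whose cells store Pf4, had 4 of 5 genes past the same threshold with a median of 1.06, and its part in the Pf4 value was not tested. None of the 9 chemokine and receptor genes of the main set met this criterion in edgeR, which at 5.24% of all genes does not set them apart.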

How the results depend on the processing

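With each library left out in turn, the 9 chemokine and receptor genes gave 1 to 2 calls between weeks (3 with all libraries), and the other family genes gave 3 to 8 between weeks, 0 to 1 for DMM against sham, 0 to 1 for genotype and 0 to 4 for the genotype by surgery term. The single call for genotype came without Oscar-/- DMM at 4 weeks. On log2(TPM + 1) limma called 5 genes of the set and 10 of the family between weeks. For DMM against sham, DESeq2, limma and the fit with no filter each called 1 family gene, and for the genotype by surgery term DESeq2 called 1 and the fit with no filter 5. On TMM-scaled counts 3 genes of the set, Cxcr2, Cxcr4 and Cxcl1, were lower after DMM in all 4 pairs, beside 0 on TPM. The share of all genes doing so is not given here, and Cxcl1 had 1 count in each library of the 2-week WT pair. No other count of calls moved by over 1.5 times.

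Values near 0 changed sign. For DMM against sham, limma gave 0.090 for Ccl9, 0.016 for Ccr2 and 0.0090 for Cxcr4. Leaving out 1 library gave -0.52 to 0.23 for Ccl2, -0.18 to 0.0067 for Ccl6, -0.13 to 0.045 for Ccl9, -0.34 to 0.087 for Cxcl2, -0.0079 to 0.20 for Cxcl14 and -0.082 to 0.0038 for Ccr2. For genotype, Ccl9 gave -0.18 with a genotype by week term and Cxcl2 -0.13 in limma. Leaving out 1 library gave -0.31 to 0.079 for Ccl3, -0.038 to 0.14 for Ccl9 and -0.16 to 0.050 for Cxcl14. Between weeks limma gave 0.12 for Ccl9, 0.14 for Cxcl14 and 0.22 for Ccr2, on a scale where all genes shifted by 0.23. For the genotype by surgery term limma gave -0.031 for Ccl6, -0.31 for Ccl9 and -0.30 for Cxcr4, where all genes shifted by -0.26. Leaving out 1 library gave -1.03 to 0.90 for Ccl2, -0.70 to 0.51 for Ccl3, -0.15 to 0.29 for Ccl9, -0.44 to 0.046 for Cxcl14, -0.19 to 0.022 for Ccr2, -0.13 to 0.036 for Cxcr2 and -0.017 to 0.18 for Cxcr4. None of these values passed the threshold before or after, and the cause was not tested. The labels carry no replicate numbers, but DMM and sham libraries pair by genotype and week. With a genotype by week term, which blocks by these pairs, 0 of the 9 genes and 0 family genes passed for DMM against sham. Depth limits Cxcl1, Ccl2 and Ccl3, each with under 40 expected counts per library.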
